A study of Mus musculus with 2 samples.

Results

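The 40 genes described here encode the transcription factors, membrane-building machinery, cargo receptors and hydrolases of autophagy and the lysosome. They were chosen by name as a pathway list, with earlier results of these data known, and all 40 were found among the 20660 named genes on the arrays. Liver RNA was compared between CREBH-Tg mice, in which the active form of CREBH is overexpressed, mainly in the liver, from human cDNA, and wild-type (WT) mice. Both were of the C57B6J background and were fed the HFHS diet for 12 weeks, so diet is shared and no group on another diet enters the comparison. Livers were pooled within each genotype, and the Cy3-labelled RNA of each pool went onto 1 one-colour Agilent mouse array of the same slide. The number and age of the mice in a pool are not given in the sources used here.

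In autophagy, a kinase complex starts the growth of a double membrane, conjugation enzymes attach proteins of the Atg8 family to that membrane, and receptors tether cargo to it. The closed autophagosome then fuses with a lysosome, where acid hydrolases digest the content. In hepatocytes this route is known to degrade lipid droplets and mitochondria, especially in fasting, and lysosomal acid lipase hydrolyses the lipid that arrives. CREBH, the product of Creb3l3, is a transcription factor held in the endoplasmic reticulum of hepatocytes and known for its part in fasting and lipid metabolism.

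Each array held 59305 non-control spots, of which 58.34% were well above background in CREBH-Tg and 55.41% in WT, and none was saturated. All 40 genes, and all 57 of their probes, were well above background on both arrays, so no gene was lost to a filter on dim signal. A relative signal is the processed intensity as a multiple of the array's 75th percentile, and the log2 ratio sets CREBH-Tg over WT. Each genotype has a single array, so no difference has a replicate check and none was tested. The only error that could be measured is spot noise, taken from probes spotted repeatedly on the arrays. Its 95% range around 0, as a log2 ratio, was 0.40 for the dimmest, 0.17 for the middle and 0.095 for the brightest of 3 equal classes of genes by signal. Spot noise leaves out differences between animals, pools, labelling reactions and hybridisations. Of the 40 genes, 26 lay in the brightest class, 13 in the middle class and 1, Tfeb, in the dimmest. Mouse Creb3l3 had a relative signal of 125.0 in CREBH-Tg and 125.3 in WT. The transgene is human cDNA, so this mouse probe does not check the labels. The hepatocyte markers Alb and Ttr were among the bright genes of both arrays, at relative signals of 1626 and 899 in CREBH-Tg and 1541 and 861 in WT.

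The TFEB and TFE3 proteins bind sites built on the letters CACGTG, so this core was searched in the genes' promoters. RefSeq promoter windows of build GRCm38.p6, from 250 bases before to 50 bases after a gene start, were matched by symbol for 33 of the 40 genes. CACGTG, which reads the same on both strands, stood in the windows of 10 of these 33 genes (30.3%), against 8.09% of all 27025 genes with a window and 7.15% of all 32851 windows. The longer TCACGTGA, which contains CACGTG, stood in 4 (Atg3, Ctsa, Ctsd and Mcoln1), against 1.12% of all genes. Searched on both strands, TGACGTCA, the cyclic AMP response element bound by CREB-type factors, stood in Atg5 alone of the 33 (2.03% of all genes), and TGACGTG in Nbr1 alone (2.22%). The upstream 250 bases are shown for Lamp1, which held 4 CACGTG matches, for Ctsd, which held 2, and for Lipa and Atg9a, the genes with the highest and the lowest log2 ratio, which held none. Capitals mark CACGTG.
Lamp1, GRCm38.p6, chr8:13158911-13159160, plus strand: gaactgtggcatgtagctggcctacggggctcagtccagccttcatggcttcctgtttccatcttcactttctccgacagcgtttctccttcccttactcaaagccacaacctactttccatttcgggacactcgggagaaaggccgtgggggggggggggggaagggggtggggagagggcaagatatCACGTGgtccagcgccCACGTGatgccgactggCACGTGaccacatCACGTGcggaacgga
Ctsd, GRCm38.p6, chr7:142387828-142388077, minus strand: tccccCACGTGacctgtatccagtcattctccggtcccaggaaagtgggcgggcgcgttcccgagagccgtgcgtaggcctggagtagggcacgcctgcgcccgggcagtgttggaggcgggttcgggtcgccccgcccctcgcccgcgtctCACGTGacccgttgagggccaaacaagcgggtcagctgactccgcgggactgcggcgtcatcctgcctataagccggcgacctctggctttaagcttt
Lipa, GRCm38.p6, chr19:34527475-34527724, minus strand: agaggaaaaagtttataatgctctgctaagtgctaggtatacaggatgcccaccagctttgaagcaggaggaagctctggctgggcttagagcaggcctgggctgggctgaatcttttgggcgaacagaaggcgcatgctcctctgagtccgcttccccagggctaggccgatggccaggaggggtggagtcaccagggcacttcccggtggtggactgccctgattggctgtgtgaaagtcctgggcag
Atg9a, GRCm38.p6, chr1:75192011-75192260, minus strand: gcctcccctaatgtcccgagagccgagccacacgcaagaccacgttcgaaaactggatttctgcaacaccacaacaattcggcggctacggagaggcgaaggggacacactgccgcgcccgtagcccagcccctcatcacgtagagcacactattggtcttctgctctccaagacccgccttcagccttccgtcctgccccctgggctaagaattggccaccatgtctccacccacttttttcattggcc

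The log2 ratios of the 10 genes with a CACGTG core ran from -0.040 (Atg7) to 0.36 (Atg14), with a median of 0.061 and 7 above 0. Those of the 23 genes with a window and no match ran from -0.51 to 0.37, with a median of 0.051 and 15 above 0. The other genes with a match were Atg3, Atg5, Bnip3, Ctsa, Ctsd, Ctsl, Lamp1 and Mcoln1. A match describes letters and shows no binding.

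Differences in the 40 genes were small. None was 1.5-fold or more higher in CREBH-Tg liver, where 2.33% of the 13881 genes well above background on both arrays were, and none was 1.5-fold or more lower, against 2.23% of all genes. None was 2-fold higher (0.663% of all genes) or 2-fold lower (0.670%). Of the 323 genes that were 1.5-fold higher, 202 were in the dimmest class, as were 246 of the 309 that were lower. That class held 1 of the 40. At a smaller threshold, a log2 ratio of 0.32, 2 of 40 were higher, Lipa and Atg14 (5%, against 8.02% of all genes). At -0.32, 1 was lower, Atg9a (2.5%, against 7.18%). The dimmest class raised these shares of all genes, with 13.5% higher and 14.8% lower. They were 5.32% and 4.04% in the middle class, and 5.25% and 2.72% in the brightest, near the shares of the 40. The higher count of the 40 was 5 under median scaling, against 1838 of the 13881 genes. It was 1, Atg14, under quantile normalization and loess, against 1220 and 1130 of them. The median log2 ratio of the 40 was 0.061, against 0.027 over all genes, and 27 lay above 0 (67.5%, against 56.2%). Beyond the range of spot noise, 13 were higher (32.5%, against 21.0% of all genes) and 5 lower (12.5%, against 13.2%), while 22 were within it. Bright genes passed that range more often, and in the brightest class the count was 12 of 26 higher (46.2%, against 36.1% of all genes of that class) and 3 of 26 lower (11.5%, against 15.5%). In that class 17 of 26 lay above 0 (65.4%, against 66.1%), near the share of all its genes. In the middle class 1 of 13 was higher (against 16.9%) and 2 of 13 were lower (against 13.5%), and 9 of 13 lay above 0 (against 52.7%).

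**Figure D1:**
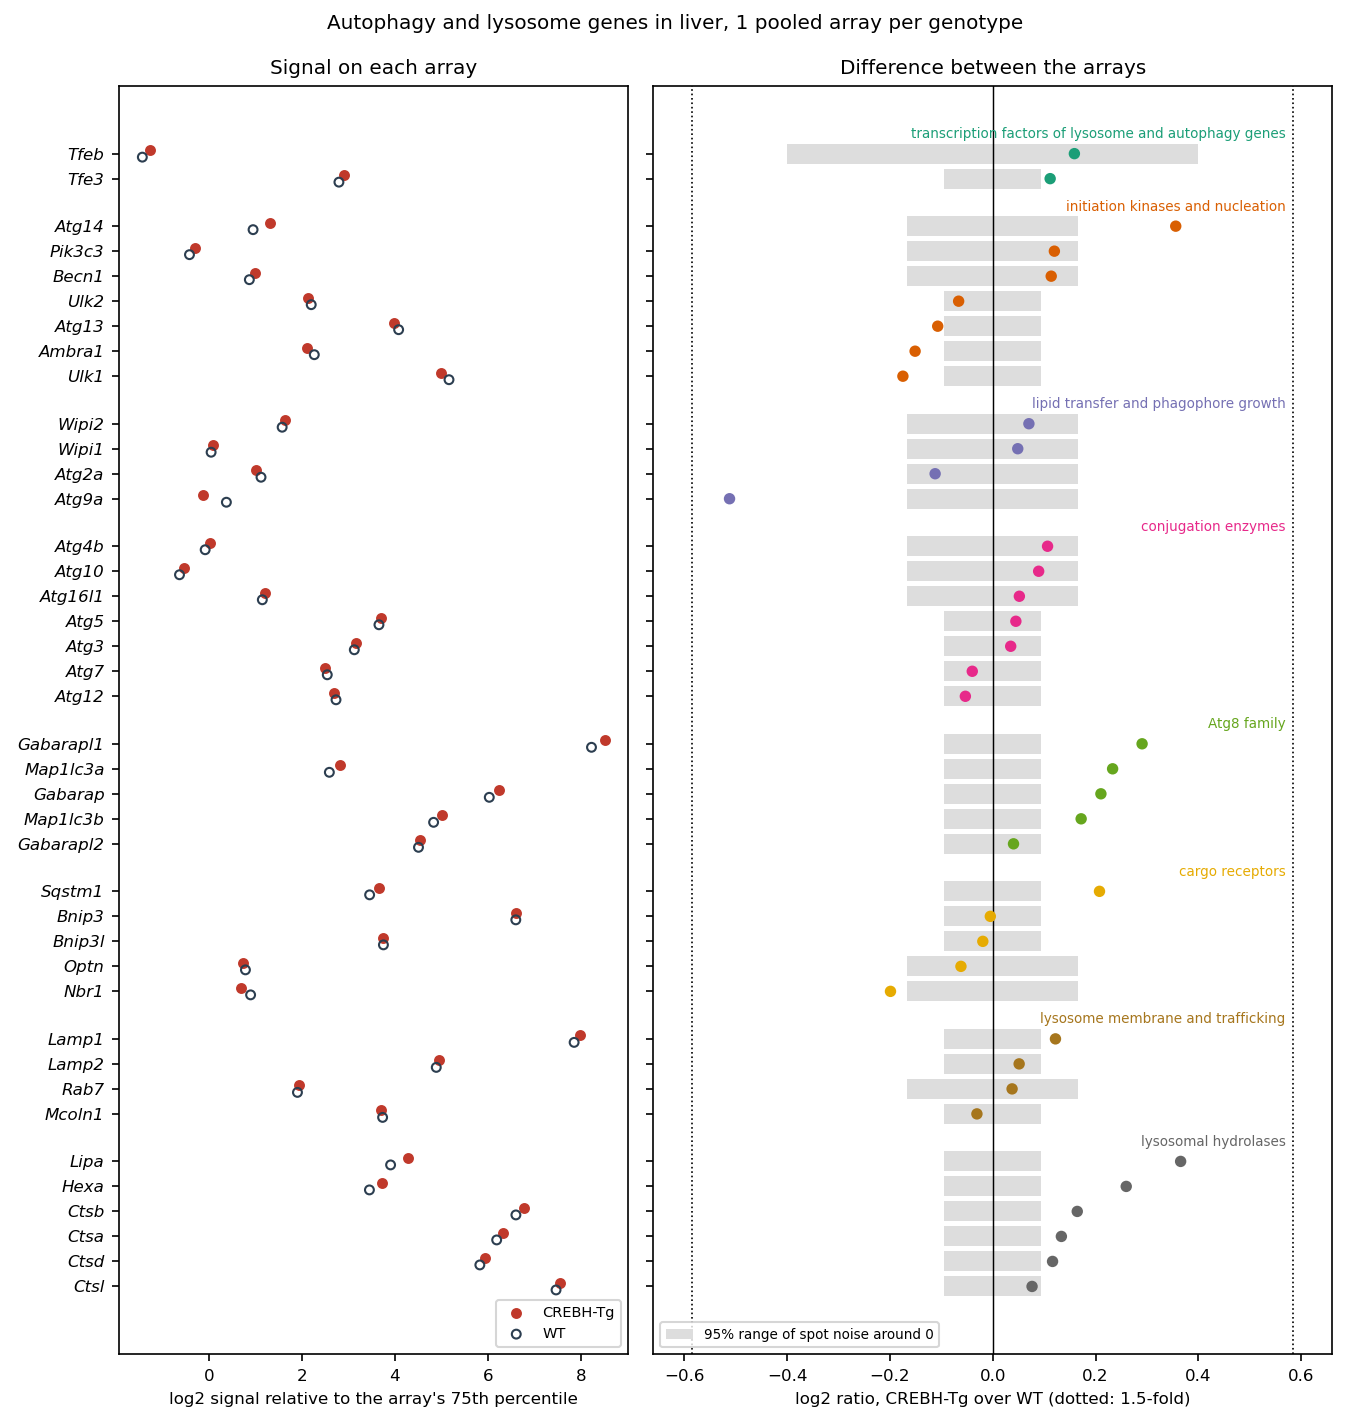
Signal of each of the 40 genes on the CREBH-Tg (filled) and WT (open) arrays as log2 of the relative signal (left), and the log2 ratio of CREBH-Tg over WT (right), grouped by role. Grey bars are the 95% range of spot noise around 0 and dotted lines mark 1.5-fold, which no gene reached; signals of different genes come from different probes and are not comparable.

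**Figure D2:**
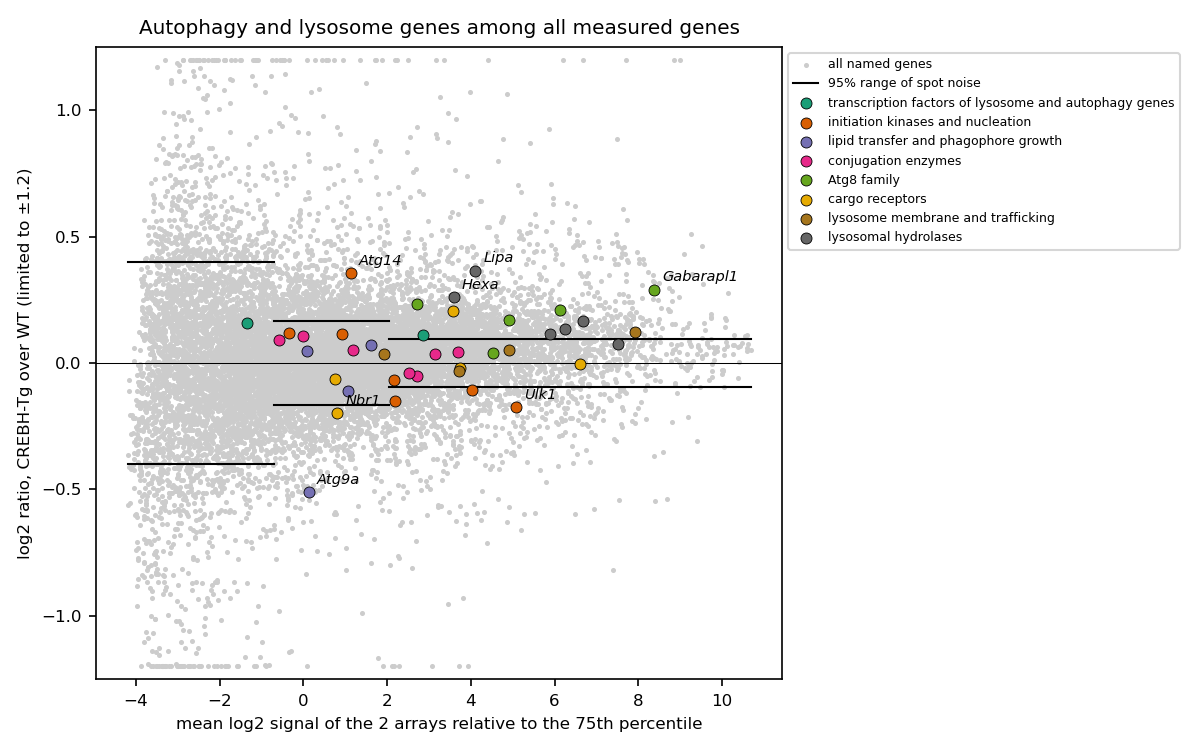
Log2 ratio of CREBH-Tg over WT against mean log2 signal for all 13881 genes (grey, limited to ±1.2) and the 40 autophagy and lysosome genes (coloured by role), with black lines at the 95% range of spot noise of each signal class. The 40 genes lie inside the cloud of all genes, from -0.51 (Atg9a) to 0.37 (Lipa), and are mostly in the bright part.

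The transcription factors TFEB and TFE3 switch on lysosome and autophagy genes when they enter the nucleus. Tfe3 had a relative signal of 7.52 in CREBH-Tg and 6.96 in WT, a log2 ratio of 0.11, just beyond spot noise, and its other probe gave 0.14, within the 0.17 of its class. The call was lost under the 75th percentile over detected probes (0.082), quantile normalization (0.077), loess (0.076), normexp (0.075) and the mean over probes. Tfeb was dim, at 0.415 in CREBH-Tg and 0.372 in WT, and its log2 ratio of 0.16 was within the 0.40 of spot noise in that class. Both stayed above 0 in all 10 processing alternatives, some of which barely change values by construction. Transcript levels do not report nuclear entry, which is how these factors are known to be controlled.

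Genes of initiation and nucleation went both ways. Atg14, which directs the class III phosphatidylinositol 3-kinase to autophagy, was highest in this group, with a relative signal of 2.48 in CREBH-Tg and 1.94 in WT. That is 1.28-fold higher, at a log2 ratio of 0.36, above 95.8% of genes of the middle class. Its partners differed by less than spot noise. Pik3c3, the catalytic subunit, had 0.816 in CREBH-Tg and 0.751 in WT (0.12), and Becn1, the scaffold, had 1.98 in CREBH-Tg and 1.83 in WT (0.11). The genes Ulk1, Ambra1 and Atg13 upstream in the pathway were lower by more than spot noise. Ulk1, the kinase that starts autophagy, had a relative signal of 31.8 in CREBH-Tg and 35.9 in WT, a log2 ratio of -0.17. Ambra1, a regulator that links the kinase and Becn1 complexes, had 4.34 in CREBH-Tg and 4.82 in WT (-0.15). Atg13, a subunit of the kinase complex, had 15.7 in CREBH-Tg and 16.9 in WT (-0.11). Under median scaling, which adds 0.089 to every log2 ratio, these 3 stayed below 0, although none of them was then beyond spot noise. Ulk2, the paralog of Ulk1, had 4.40 in CREBH-Tg and 4.61 in WT, at -0.066, and turned to 0.023 under that scaling. Of the 7 genes, 1 was higher and 3 were lower by more than spot noise (14.3% and 42.9%, against 21.0% and 13.2% of all genes), with a median of -0.066 that turned to 0.023 under median scaling.

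Among genes that supply lipid to the growing membrane, Atg9a had the lowest log2 ratio of the 40. Atg9a, a membrane protein that scrambles lipids on vesicles feeding the phagophore, had a relative signal of 0.913 in CREBH-Tg and 1.30 in WT. It was 1.43-fold lower, at a log2 ratio of -0.51, and 1.02% of genes of the middle class lay below it. Its value rests on 1 probe with 1 spot, and it ran from -0.54 to -0.33 over the alternatives, with -0.33 under normexp background correction. Atg2a, the lipid transfer protein that works with ATG9A, had 2.02 in CREBH-Tg and 2.18 in WT, and its log2 ratio of -0.11 was within spot noise. Both genes for phosphoinositide-binding proteins were near 0, Wipi1 with 1.07 in CREBH-Tg and 1.04 in WT (0.049) and Wipi2 with 3.14 in CREBH-Tg and 2.99 in WT (0.070). A dim second probe of Wipi1 gave 0.57, with relative signals of 0.292 in CREBH-Tg and 0.196 in WT, beyond the 0.40 of its class.

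The conjugation enzymes were close to equal. All 7 (Atg3, Atg4b, Atg5, Atg7, Atg10, Atg12 and Atg16l1) were within spot noise, with log2 ratios from -0.053 (Atg12) to 0.11 (Atg4b). Under median scaling 4 of 7 were higher by more than spot noise, against 37.3% of all genes. Under normexp 1, Atg12 at -0.14, was lower, against 11.2% of all genes. Atg7, the E1-like enzyme of both conjugation systems, had a relative signal of 5.69 in CREBH-Tg and 5.85 in WT by its bright probe, while a dimmer probe gave a log2 ratio of 0.17, just beyond its spot noise. Atg5, which is joined to Atg12 and with Atg16l1 attaches Atg8 proteins to lipid, had 13.0 in CREBH-Tg and 12.6 in WT. Atg3, the E2-like enzyme for that step, had 8.97 in CREBH-Tg and 8.76 in WT. Atg4b, the protease that prepares Atg8 proteins, had 1.02 in CREBH-Tg and 0.949 in WT, and Atg10, the E2-like enzyme for Atg12, had 0.688 in CREBH-Tg and 0.647 in WT. Both enzymes were slightly above 0. Atg12 had 6.42 in CREBH-Tg and 6.67 in WT, and Atg16l1 had 2.30 in CREBH-Tg and 2.22 in WT. The signs of Atg3, Atg5, Atg7 and Atg12 turned in at least 1 alternative.

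The Atg8 family, the small ubiquitin-like proteins attached to the autophagosome, had the highest median of the 8 roles, 0.21, except under quantile normalization, where it was 0.12 and that of the transcription factors 0.13. Gabarapl1 had a relative signal of 367 in CREBH-Tg and 300.1 in WT, 1.22-fold higher at a log2 ratio of 0.29, which was 0.16 under quantile normalization and 0.19 under loess. Map1lc3a had 7.10 in CREBH-Tg and 6.04 in WT (0.23), and Gabarap had 75.7 in CREBH-Tg and 65.4 in WT (0.21), with its second probe at 0.096. These 3 and Map1lc3b were higher by more than spot noise, 4 of 5, in a signal class where 36.1% of genes were. Map1lc3b, which encodes LC3B, the usual marker of autophagosomes, was spotted 10 times. Its spots ran from 29.1 to 35.1 in CREBH-Tg and from 25.5 to 31.3 in WT, so the arrays overlapped spot by spot. All 10 paired log2 ratios lay above 0, with a mean of 0.17 ± 0.057 (SD over 10 spots of 1 hybridisation). Gabarapl2 had 23.4 in CREBH-Tg and 22.8 in WT, and its log2 ratio of 0.040 turned below 0 under quantile normalization and loess. All 5 genes were in the brightest class, where 66.1% of all genes lay above 0, and members of this family are similar in sequence, so probes may share signal.

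Among cargo receptors, Sqstm1 and Nbr1 lay on opposite sides of 0. Sqstm1, which encodes p62 and carries ubiquitin-tagged cargo, had a relative signal of 12.7 in CREBH-Tg and 11.0 in WT, a log2 ratio of 0.21. Nbr1, a receptor of related structure, had 1.63 in CREBH-Tg and 1.87 in WT, a log2 ratio of -0.20. Both were beyond spot noise and kept their side of 0 in all 10 alternatives, some of which barely change values by construction. Nbr1 was within spot noise under median scaling, at -0.11. Optn, a receptor for damaged mitochondria and bacteria, had 1.66 in CREBH-Tg and 1.73 in WT (-0.062). The mitophagy receptors Bnip3 and Bnip3l were nearest to equal, with 96.8 in CREBH-Tg and 97.1 in WT for Bnip3 and 13.3 in CREBH-Tg and 13.5 in WT for Bnip3l. Their 3 and 4 probes gave log2 ratios from -0.0047 to 0.048 and from -0.019 to 0.091, all within spot noise.

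Genes of the lysosomal membrane and of trafficking to it were close to equal. Lamp1, an abundant membrane glycoprotein, had a relative signal of 252 in CREBH-Tg and 232 in WT, and its log2 ratio of 0.12 was beyond spot noise. It was within spot noise under quantile normalization (0.027), loess (0.025), normexp (0.091) and the 75th percentile over detected probes (0.093). Lamp2, which is required for autophagosome clearance and chaperone-mediated autophagy, had 30.8 in CREBH-Tg and 29.7 in WT, with its probes for different transcripts at 0.051 and 0.077. Mcoln1, the lysosomal calcium channel, had 13.1 in CREBH-Tg and 13.3 in WT. Rab7, the GTPase that guides fusion with the lysosome, had 3.85 in CREBH-Tg and 3.75 in WT.

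All 6 lysosomal hydrolases were above 0 in CREBH-Tg liver over WT, with a median log2 ratio of 0.15, except that Ctsl was below 0 under quantile normalization and loess. They were all in the brightest class, where 66.1% of genes lay above 0 and the median was 0.051. Lipa, lysosomal acid lipase, which hydrolyses triglycerides and cholesteryl esters, was the highest of the 40 genes. Its relative signal was 19.4 in CREBH-Tg and 15.0 in WT, 1.29-fold higher at a log2 ratio of 0.37, above 95.9% of the brightest class. Hexa, the alpha subunit of beta-hexosaminidase, which degrades gangliosides, had 13.1 in CREBH-Tg and 11.0 in WT (0.26). Over the alternatives Lipa ran from 0.31 to 0.45 and Hexa from 0.21 to 0.35. The cathepsins, proteases of the lysosome, differed less. Ctsb had 109.0 in CREBH-Tg and 97.3 in WT (0.16), and Ctsa had 80.1 in CREBH-Tg and 73.1 in WT (0.13). A dim second probe of Ctsa gave -0.081, within the 0.40 of its class, and the mean over its probes was 0.026. Ctsd had 61.6 in CREBH-Tg and 56.8 in WT (0.12). Ctsb, Ctsa and Ctsd were beyond spot noise by their brightest probes, while Ctsl, at 187 in CREBH-Tg and 177 in WT (0.077), was within it. So 5 of 6 were higher by more than spot noise in the main values, against 36.1% of the brightest class, to which all 6 belong. Under quantile normalization and loess 2 of 6 were, against 16.6% and 16.4% of genes of all classes. Under the 75th percentile over detected probes, normexp and the mean over probes 4 of 6 were (against 16.5%, 18.6% and 19.5%). Under median scaling all 6 were (against 37.3%). The shares given for the alternatives are of genes of all classes, of which 21.0% were higher in the main values. They cannot be set beside the 36.1% of the brightest class.

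**Figure D3:**
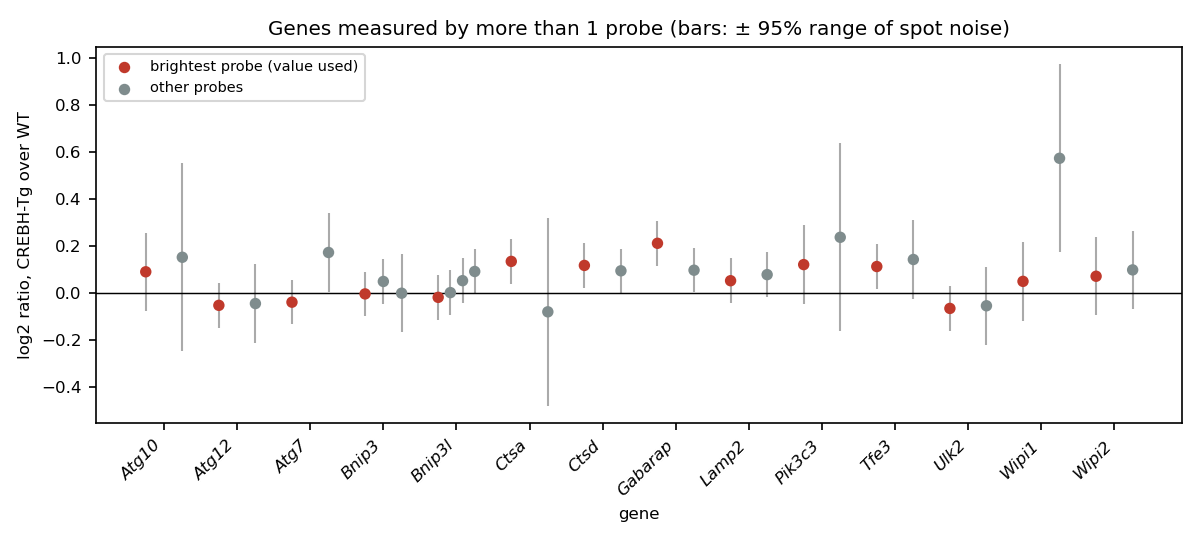
Log2 ratio of CREBH-Tg over WT for every probe of the 14 genes measured by more than 1 probe, with the brightest in red, others in grey and bars of the 95% range of spot noise. The probes of 10 genes lay on 1 side of 0 and those of Atg7, Bnip3, Bnip3l and Ctsa on both, and Wipi1 had the widest spread, 0.52.

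The choice of probe could be examined only where a gene had several. Of the 40 genes, 26 had 1 probe and 14 had several, and the probes of a gene typically spanned little, with a median span of 0.057 on the log2 scale. With the mean over probes, Wipi1 moved to 0.31, Atg7 to 0.066 and Ctsa to 0.026, each by more than its spot noise.

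Further genes of the pathway gave similar small differences. Of 152 other genes in 8 lists, 144 were well above background on both arrays, with a median log2 ratio of 0.038. By more than spot noise 31 were higher (21.5%, against 21.0% of all genes) and 18 lower (12.5%, against 13.2%). Under median scaling these were 65 and 9 (45.1% and 6.25%, against 37.3% and 7.23% of all genes), and under quantile normalization 20 and 23 (13.9% and 16.0%, against 16.6% and 15.5%), so which direction held more genes depended on the scaling. Of these 144 genes, 78 were in the brightest class, 51 in the middle and 15 in the dimmest. Over all genes of these classes the main values had 36.1%, 16.9% and 9.83% higher and 15.5%, 13.5% and 10.5% lower. Of 37 further lysosomal hydrolases and cofactors, 21 were in the brightest class. In all, 24 of the 37 lay above 0 (64.9%, against 56.2% of all genes and 66.1% of that class). By more than spot noise 9 were higher and 4 lower (24.3% and 10.8%, against 21.0% and 13.2% of all genes), with a median of 0.057. The wider set of hydrolases lay on both sides of 0. Highest there were Ctsz, cathepsin Z, with a relative signal of 56.0 in CREBH-Tg and 44.5 in WT (0.33), and Sgsh, which degrades heparan sulfate, with 235 in CREBH-Tg and 187 in WT (0.32), although its dimmer probe gave 0.040. Lowest were Idua, which degrades glycosaminoglycans, with 12.0 in CREBH-Tg and 18.1 in WT, 1.51-fold lower, and the nuclease Dnase2a, with 60.0 in CREBH-Tg and 70.4 in WT. The second probe of Idua, at -0.056, did not share that size.

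Other membrane proteins of the lysosome held the widest differences of the 8 lists. Of 18 measured, 4 were higher and 1 was lower by more than spot noise (22.2% and 5.56%, against 21.0% and 13.2% of all genes), with a median of 0.054. Of the 18, 10 were in the brightest class, where 36.1% of genes were higher and 15.5% lower. Cd63, a tetraspanin of late endosomes, had a relative signal of 7.34 in CREBH-Tg and 4.65 in WT, 1.58-fold higher by 1 probe. Npc2, which moves cholesterol out of the lysosome with Npc1, had 14.9 in CREBH-Tg and 12.1 in WT (0.30). Slc17a5, the sialic acid exporter, had 7.60 in CREBH-Tg and 11.3 in WT (-0.57), but its other probe gave 0.11. Laptm4b lay at -0.12.

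Of 17 further genes of the autophagy machinery, 2 were higher and 3 lower by more than spot noise (11.8% and 17.6%), with a median of -0.023. Over all genes these shares were 21.0% and 13.2%, which also apply to the 3 lists that follow. Over the brightest class they were 36.1% and 15.5%. That class held 8 of these 17 genes, and 5, 6 and 11 genes of the next 3 lists. Wdr45, a relative of the WIPI proteins, lay at 0.16 and Tex264, a receptor for the endoplasmic reticulum, at 0.10. Atg16l2, a paralog of Atg16l1, had 2.74 in CREBH-Tg and 3.67 in WT, and both of its probes were low, at -0.42 and -0.40. Uvrag, a partner of Becn1, lay at -0.17. Among 10 other cargo and mitophagy receptors, 4 were higher and none lower by more than spot noise (40% and 0%), from -0.23 (Calcoco1) to 0.24 for Retreg1, a receptor for the endoplasmic reticulum. That became 3 higher and 1 lower under quantile normalization and loess, and 2 higher under the 75th percentile over detected probes. In these alternatives 16.4% to 16.6% of all genes were higher and 15.5% to 16.3% lower. Among 15 fusion genes, 3 were higher and 2 lower (20% and 13.3%), from -0.43 for the tether Epg5 to 0.14 for the Rab7 effector Rilp. Of 16 subunits of the V-ATPase, the proton pump that acidifies lysosomes, 2 were higher and 2 lower (12.5% each), from -0.28 (Atp6v1h) to 0.19 (Atp6ap2), with a median of 0.027, the same as over all genes.

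**Figure D4:**
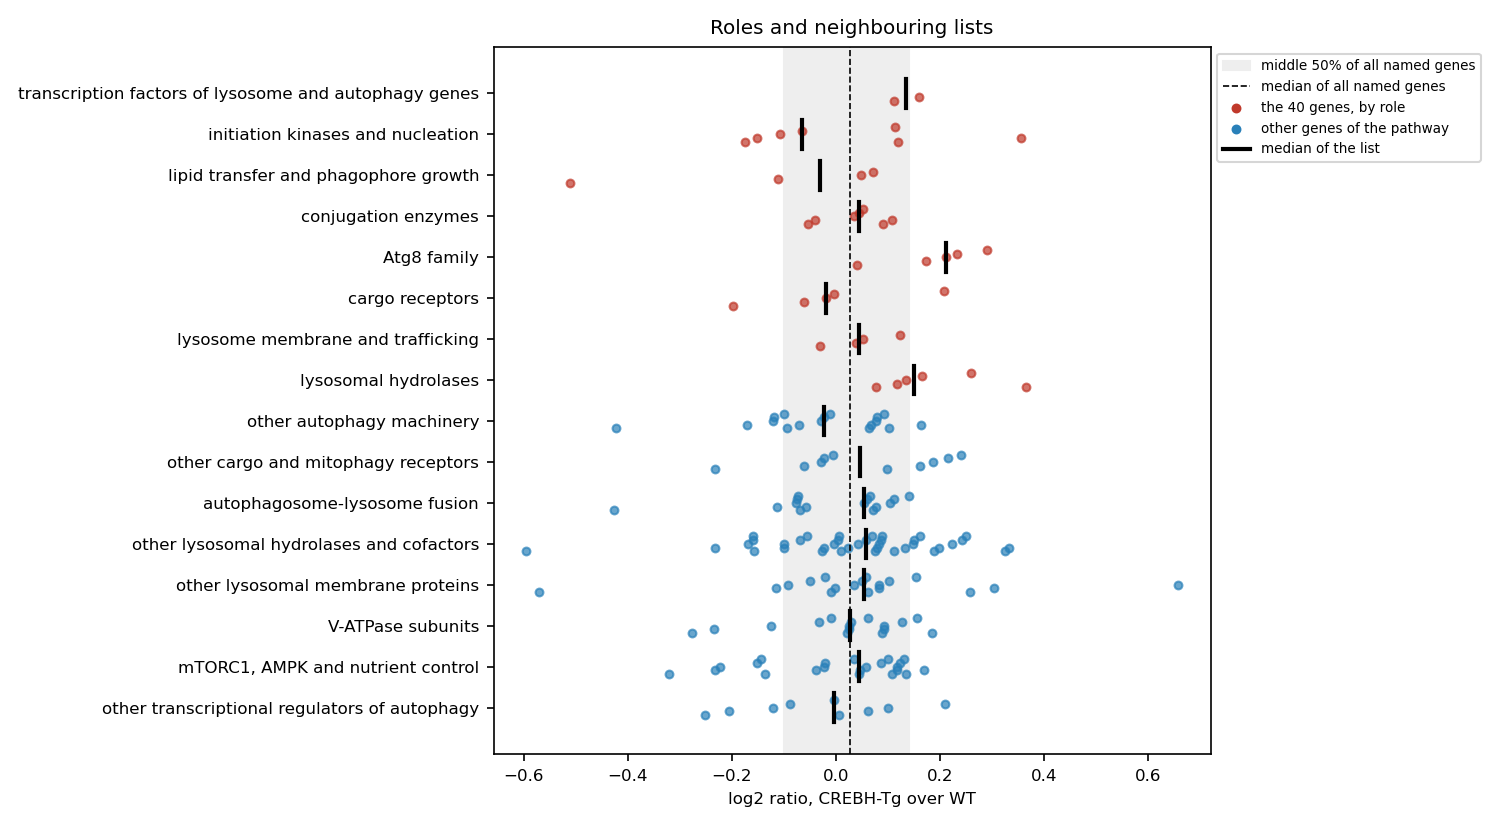
Log2 ratio of CREBH-Tg over WT for the 40 genes by role (red) and for other genes of the pathway by list (blue), with the median of each list as a black bar and the middle 50% of all genes shaded. The Atg8 family and the 6 hydrolases have the highest medians, 0.21 and 0.15, and the wider lists have medians between -0.023 and 0.057, near the 0.027 of all genes (dashed).

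Lysosomal genes are expressed strongly in macrophages, and bulk liver RNA cannot tell fewer cells of a type from less RNA per cell. Of 16 macrophage markers, 14 were well above background on both arrays, with a median log2 ratio of -0.054, 6 above 0 and a range of -0.95 (Marco) to 1.14 (Trem2). By more than spot noise 2 were higher, C1qb (0.09504, against 0.094516) and Trem2, which was in the dimmest class. By that rule 3 were lower, Marco, Itgam and Adgre1. Those shares were 14.3% and 21.4%, against 21.0% and 13.2% of all genes. The same shares of all genes apply to the other cell types below, with 9.83% and 10.5% in the dimmest class. Under loess 1 macrophage marker was higher and 7 lower (against 16.4% and 15.8% of all genes). The counts were 1 and 6 under quantile normalization (against 16.6% and 15.5%) and under the 75th percentile over detected probes (against 16.5% and 16.3%). Under normexp they were 1 and 5 (against 18.6% and 11.2%), and under median scaling 4 and 3 (against 37.3% and 7.23%). Gpnmb was well above background in CREBH-Tg only, and Cd68 had no named probe. The summed relative signal of the 14 macrophage markers was 198 in CREBH-Tg and 219 in WT. The Kupffer cell marker Clec4f had 22.0 in CREBH-Tg and 22.6 in WT, and Adgre1 3.91 in CREBH-Tg and 4.91 in WT. The complement genes C1qa, C1qb and C1qc, with Timd4 and Lyz2, lay slightly above 0, from 0.028 to 0.095. Csf1r (-0.089), Vsig4 (-0.070), Cd5l (-0.067) and Cybb (-0.13) lay below 0, within spot noise. The summed signal of 8 hepatocyte markers was 6400 in CREBH-Tg and 6101 in WT, with a median of 0.079 and 6 above 0. Of these 8, 3 were higher by more than spot noise, Apoa1 (0.35), Trf (0.11) and Hnf4a (0.10). Lower by more than spot noise were 2, Ass1 (-0.21) and Cps1 (-0.11). All 8 were in the brightest class, where 36.1% of genes were higher and 15.5% lower. The hepatocyte median was -0.045 under loess, with 2 above 0, and -0.00051 under quantile normalization, with 4 above 0. For 10 lymphocyte markers the summed signal was 129 in CREBH-Tg and 104 in WT (median 0.21). Cd4 made up 114 of that sum in CREBH-Tg and 89.9 in WT. Of these 10, 7 were in the dimmest class and 5 were higher by more than spot noise, with Cd8a and Klrb1c not well above background on either array. The sum over 10 stellate cell markers was 81.0 in CREBH-Tg and 77.2 in WT (median 0.16), mostly Dcn at 68.1 in CREBH-Tg and 66.7 in WT, and 4 were higher by more than spot noise. For 10 endothelial markers it was 126 in CREBH-Tg and 115 in WT (median 0.074), with 3 higher and 1, Lyve1, lower by more than spot noise. Those of cholangiocytes were dim (2.75 in CREBH-Tg and 3.69 in WT, median -0.34), with 3 of 6 lower by more than spot noise and Epcam not well above background. The part of these cell types in the differences above was not tested.

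**Figure D5:**
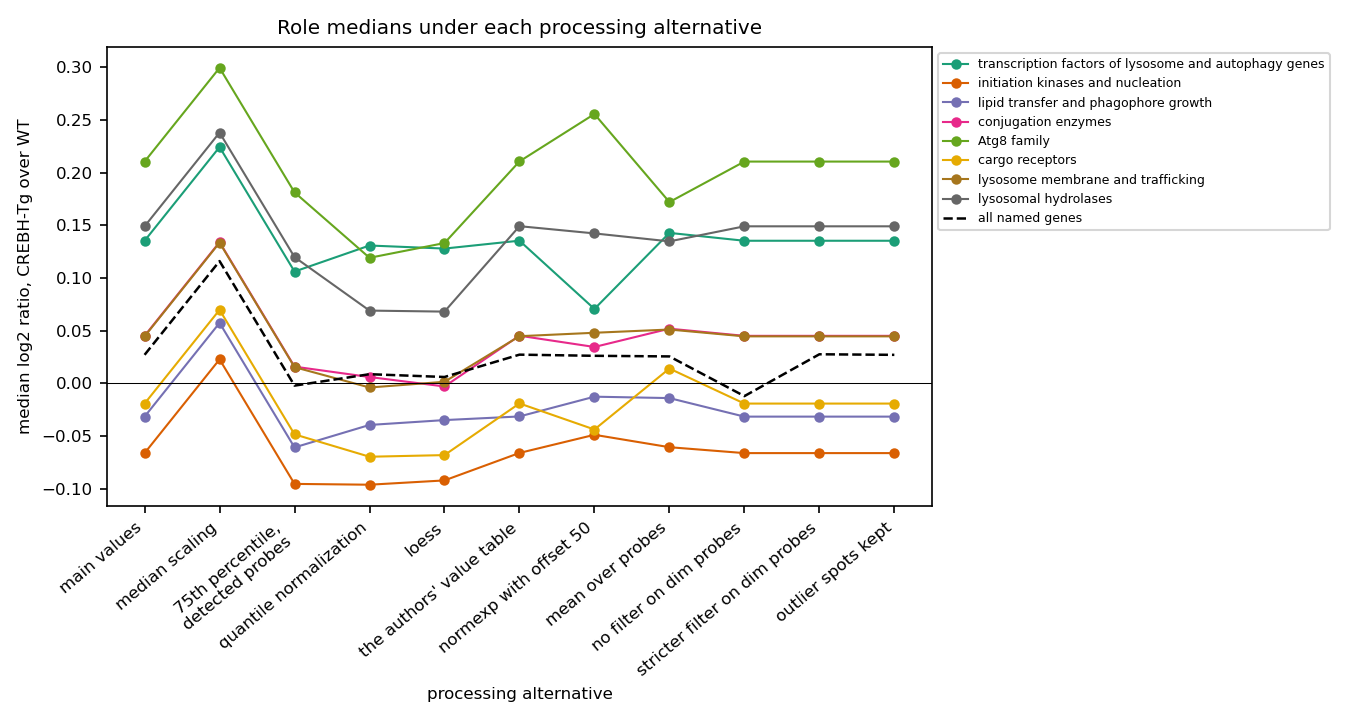
Median log2 ratio of CREBH-Tg over WT for each role under the main values and 10 processing alternatives, with the median of all named genes dashed. The Atg8 family, the hydrolases and the transcription factors lie above the median of all genes in each, and initiation, lipid transfer and cargo receptors lie below it in each.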

How the data were processed

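Per the labels, total liver RNA was isolated with Trizol and amplified to Cy3-labelled cRNA. Scans were quantified by Agilent Feature Extraction 10.10.1.1 against mm9 probe annotation, per the file headers. Those headers give the deposited processed signal as a linear intensity after background subtraction and detrending, with no scaling from array to array. The authors' value table held the same intensity times 1 constant per array, 2.68 for CREBH-Tg and 2.59 for WT.

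Processed signals were put on a log2 scale, and each array's 75th percentile (309 for CREBH-Tg and 333 for WT on the linear scale) was subtracted. Control spots and 300 outlier spots were left out. Spots of 1 probe were averaged. A probe counted as detected if more than 50% of its spots passed the scanner software's well-above-background flag. Genes took their brightest probe detected on both arrays. Probes were named by unversioned accession through a GRCm38.p6 RefSeq table, which named 27233 of 55677, used for names only. Spot noise came from probes spotted at least 5 times, 92, 97 and 87 of them from the dimmest to the brightest class. All 40 genes were named, and of each other pathway list the highest and lowest (2 of each in lists of 20 or more). The cell type markers named with their values were picked after these were seen. The 40 genes, lists and settings were chosen with earlier results of these data known. Steps were tested on simulated data. Promoters were RefSeq's; probe sequences were not used here. The alternatives were median scaling, the 75th percentile over detected probes, quantile normalization, loess (span 0.3), the authors' table, normexp (offset 50, median spot and background signal), the mean over probes, no filter, a filter at 4 times the lowest detected signal, outlier spots kept, and a smaller (log2 ratio of 0.32) and a 2-fold threshold. limma 3.58.1 in R 4.3.3 gave normexp, statsmodels 0.14.6 gave loess, and matplotlib 3.10.9 drew the figures, with pandas 2.3.3 and numpy 2.4.6 under Python 3.11.15 for the rest.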

Additional observations from a re-analysis of the deposited data

How the results depend on the processing

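With 1 array per genotype, the values rest on 1 hybridisation each, and the number of arrays limits their precision. No paired analysis was possible because each genotype has 1 array and no result comes from a test. In all 10 alternatives no gene of the 40 reached 1.5-fold in either direction, and at 2-fold none did. At the smaller threshold, a log2 ratio of 0.32 in size, 2 were higher and 1 lower in the main values, with 1 to 5 higher and 1 lower over the alternatives. The median log2 ratio of the 40 ran from 0.019 (quantile normalization) to 0.15 (median scaling). By more than spot noise, 13 higher and 5 lower genes became 22 and 1 under median scaling, 8 and 6 under quantile normalization, and 8 and 5 under loess. Over all genes 21.0% were higher in the main values, 37.3% under median scaling, 16.6% under quantile normalization and 16.4% under loess. The shares lower were 13.2%, 7.23%, 15.5% and 15.8%, in the same order. Median scaling moves every gene alike by construction, and the median of all genes was then 0.12. The cause of the other shifts was not tested. In every alternative 22 genes stayed above 0 and 6 below, and 12 changed side in at least 1. The counts above 0, those of the wider lists and at the smaller threshold, and the medians by role were added as results after the files were read.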

Other observations

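Genes that tell the cell when to start autophagy differed as little. Of 22 measured genes of mTORC1, AMPK and nutrient control, 6 were higher and 4 lower by more than spot noise (27.3% and 18.2%, against 21.0% and 13.2% of all genes), with a median log2 ratio of 0.045. The counts were 11 and 1 under median scaling, against 37.3% and 7.23% of all genes. Under loess they were 2 and 5, against 16.4% and 15.8%. Ddit4, an inhibitor of mTORC1 induced by stress and glucocorticoids, was lowest, with a relative signal of 15.1 in CREBH-Tg and 18.9 in WT (-0.32). Mlst8, a subunit of the mTOR complexes, lay at -0.23. Highest were Lamtor5 (0.17) and Lamtor3 (0.13), subunits of the lysosomal anchor of mTORC1, and the other 2 probes of Lamtor3 gave 0.0078 and -0.10.

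Among 9 other transcriptional regulators of autophagy, 1 was higher and 2 were lower by more than spot noise (11.1% and 22.2%, against 21.0% and 13.2% of all genes). Mitf, a relative of Tfeb, had 0.975 in CREBH-Tg and 0.843 in WT (0.21), with its dimmer probe at 0.025. Foxo1, which insulin signalling keeps out of the nucleus, had 8.31 in CREBH-Tg and 9.90 in WT (-0.25), and its second probe gave -0.27. Tpcn2 passed the detection flag in CREBH-Tg and not in WT, and Rragd in WT and not in CREBH-Tg, so neither has a ratio.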
